A study of Homo sapiens with 6 samples.

Results

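The kynurenine pathway, through which cells break down the amino acid tryptophan, was described here by the transcripts of 10 of its enzymes in U251 cells, an established human glioma line. The 10 genes are IDO1, IDO2, TDO2, AFMID, KMO, KYNU, HAAO, QPRT, KYAT1 and KYAT3, out of 60612 gene identifiers in the deposited count table. They were selected on the measured difference between control and TEAD3 knockdown libraries, in which IDO1 and KYNU were higher after the knockdown. Their differences in that contrast are therefore a description, and no test is read from them. Of the 10 genes, 8 passed a filter on low counts that left 17723 genes in the fit, IDO2 had counts in only 1 library of each group, and HAAO had none.

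IDO1, IDO2 and TDO2 are dioxygenases that open the indole ring of tryptophan to give N-formylkynurenine, which the formamidase AFMID turns into kynurenine. From kynurenine, aminotransferases such as KYAT1 and KYAT3 make kynurenic acid, while KMO, KYNU, HAAO and QPRT act along the branch that leads through 3-hydroxykynurenine, 3-hydroxyanthranilic acid and quinolinic acid to NAD. In gliomas the pathway is known for kynurenine made by IDO1 or TDO2, which can dampen T cells and activate the aryl hydrocarbon receptor, and IDO1 is a classical target of interferon gamma.

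Polyadenylated RNA was sequenced in 3 libraries of U251 cells labelled as normal controls and in 3 libraries labelled as TEAD3 knockdown. TEAD3 encodes a transcription factor of the TEAD family, through which the coactivators YAP1 and TAZ reach DNA. The knockdown was made by transient transfection, and its efficiency was measured about 36 h after an siRNA, per the labels' protocols, which also name a plasmid vector. The sources used here do not give what the controls received, the time of harvest or whether the replicates came from separate cultures, so p-values cover only how these libraries spread, a spread that may be technical.

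Total counts per library lay between 58344026 and 64808615, and 3 counts corresponded to between 0.0457 and 0.0529 CPM (counts scaled per library by TMM, the unit of all levels here), a floor that covers counting error only. TEAD3, the targeted gene, had levels of 14.9, 20.3 and 21.0 CPM in the 3 controls, in the order of their replicate numbers, and of 4.70, 8.35 and 6.07 CPM in the 3 knockdown libraries, a log2 fold change of -1.55 (SE 0.218, edgeR quasi-likelihood adjusted p = 0.0114). This call was lost without control replicate 3 (-1.46, edgeR adjusted p = 0.0541), without knockdown replicate 1 (-1.37, 0.0532) and without knockdown replicate 3 (-1.52, 0.0938). Of the 12 glial and glioma markers, VIM, CD44, NES and SOX2 were abundant, GFAP had between 24 and 108 counts a library and OLIG2 had none. Their summed level lay between 5320 and 5886 CPM in controls and between 4388 and 4944 CPM in the knockdown, and most of that difference was VIM, at 4482 ± 311 CPM in controls against 3677 ± 262 CPM in the knockdown (SD, n = 3 each). NES had mean levels of 185 and 186 CPM, and SLC1A3 was higher in each knockdown library than in any control (means of 4.3 and 6.57 CPM). VIM, GFAP (means of 1.46 and 0.572 CPM), SOX2 (150 and 124 CPM) and SOX9 (47.0 and 41.4 CPM) were lower in each knockdown library than in any control. Of the 10 markers tested, edgeR called none. The groups did not overlap for 4 with the knockdown lower and for 1 with it higher, against 10.6% and 11% of all genes tested. The part of these markers in the results below was not tested. Of 13 myeloid and dendritic cell markers, 6 had no counts in any library, AIF1, ITGAX, CD163 and TYROBP among them, and PTPRC had at most 8 counts. The sum of the 13 lay between 125 and 156 CPM in controls and between 125 and 146 CPM in the knockdown, nearly all of it CD68. Of 8 lymphoid markers, 4 had no counts, and the sum of the 8 did not exceed 0.458 CPM in controls or 1.19 CPM in the knockdown. In bulk RNA of this kind, fewer cells of a type and less RNA per cell cannot be told apart.

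The sequences upstream of KYNU, KMO and TDO2 are shown because, with IDO1, these are the genes of the pathway whose libraries did not overlap between the groups. Each is the 250 bases before the gene's start in RefSeq (GRCh38.p14), on the coding strand, 5′ to 3′, on chr2:142877414-142877663 (plus strand), chr1:241532128-241532377 (plus strand) and chr4:155903446-155903695 (plus strand) in that order. Capitals mark a match to 1 of 5 motifs searched on both strands, TEAD (GGAATG), the interferon-stimulated response element (GAAANNGAA), the gamma-activated site (TTCNNNGAA), AP-1 (TGANTCA) and ATF4 (TGATGNAAT).
KYNU: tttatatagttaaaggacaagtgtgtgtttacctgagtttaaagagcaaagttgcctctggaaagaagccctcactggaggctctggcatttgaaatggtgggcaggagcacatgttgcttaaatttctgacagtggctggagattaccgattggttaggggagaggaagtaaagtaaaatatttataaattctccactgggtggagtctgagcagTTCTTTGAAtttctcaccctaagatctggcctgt
KMO: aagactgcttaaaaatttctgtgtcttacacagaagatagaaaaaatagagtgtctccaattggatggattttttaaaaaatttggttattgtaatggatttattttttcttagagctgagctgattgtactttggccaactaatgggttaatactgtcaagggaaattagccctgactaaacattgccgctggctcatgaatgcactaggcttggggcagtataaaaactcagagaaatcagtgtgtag
TDO2: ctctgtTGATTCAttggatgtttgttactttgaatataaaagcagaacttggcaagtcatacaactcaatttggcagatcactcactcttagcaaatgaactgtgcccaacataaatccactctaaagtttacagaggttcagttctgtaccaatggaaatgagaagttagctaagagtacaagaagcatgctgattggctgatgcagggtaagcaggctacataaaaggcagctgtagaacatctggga
The KYNU window held 1 match, to the gamma-activated site, 34 to 26 bases before the start. The KMO window held none. The TDO2 window held 1 match to AP-1, 244 to 238 bases before the start. Among the windows not shown, those of KYAT1, whose groups overlapped, held matches to TEAD, the gamma-activated site and the interferon-stimulated response element. Those of AFMID, HAAO, KYAT3 and QPRT held none. Among 35116 RefSeq windows of the same length, 6.57% held the gamma-activated site motif, 6.57% held AP-1, 11.9% held TEAD, 6.88% held the interferon-stimulated response element and 0.888% held ATF4. A match is a run of letters and not a site in use, and letters missing from a window say nothing about the factor. In GENCODE release 29, the first annotated base of KYNU (142877498) and of KMO (241532134) lay inside the window shown. Bases after it are within the gene as GENCODE annotates it. These are nearly the whole KMO window and a part of the KYNU window that holds the match. The first annotated base of TDO2, at 155854738, lay far upstream of its window, which is thus also within the annotated gene. Windows were found for 8 of the 10 genes, and IDO1 and IDO2 were not matched.

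IDO1 (ENSG00000131203, GRCh38 chromosome 8 from 39902275 to 39928444, plus strand) was at 34.1, 29.4 and 34.6 CPM in controls and at 71.1, 62.8 and 66.0 CPM in the knockdown, in each case for replicates 1 to 3, the order kept from here on. The lowest knockdown library was well above the highest control, and the libraries of each group lay close together, at 32.7 ± 2.85 and 66.6 ± 4.16 CPM (SD, n = 3 each). IDO1 level was 2.04-fold higher in the knockdown (95% interval 1.72 to 2.41), a log2 fold change of 1.03 with SE 0.110. These values rest on between 1671 and 2239 counts a library in controls and between 4027 and 4431 in the knockdown. Exons of IDO1 overlap 1 gene on the opposite strand, AC007991.4, which had at most 6 counts in any library.

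TDO2, the dioxygenase that breaks down most tryptophan in liver, was at 3.21, 2.75 and 2.70 CPM in controls and at 4.38, 4.28 and 5.17 CPM in the knockdown (ENSG00000151790, chromosome 4 from 155854738 to 155920406, plus strand). Again no knockdown library was as low as any control, but the gap was small beside that of IDO1. The fold was 1.60 (95% interval 1.17 to 2.18, log2 fold change 0.67 with SE 0.205). Hepatocyte markers were low in both groups, with a summed level between 5.22 and 7.48 CPM in controls and between 5.26 and 6.30 CPM in the knockdown. Nearly all of this was SERPINA1, and TTR had no counts. ALB, at 18, 11 and 7 counts in controls and 19, 33 and 43 in the knockdown, was higher in each knockdown library than in any control, as TDO2 was (means of 0.195 and 0.493 CPM). Its log2 fold change was 1.33 (SE 0.635, edgeR adjusted p = 0.349). The groups overlapped for SERPINA1 (means of 5.60 and 4.99 CPM, log2 fold change -0.17) and for HP (log2 fold change 0.49). The part of these markers in the TDO2 difference was not tested. IDO2, the IDO1 paralog that lies next to it on chromosome 8 (ENSG00000188676, 39934614 to 40016391, plus strand), had 4 counts in control replicate 3, 2 counts in knockdown replicate 3 and 0 in the other 4 libraries. IDO2 was at or near the floor in both groups, and a difference was not detectable at this depth.

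AFMID (ENSG00000183077, chromosome 17 from 78187317 to 78207701, plus strand), the formamidase that yields kynurenine, was at 10.1, 14.3 and 10.5 CPM in controls and at 14.4, 10.5 and 12.2 CPM in the knockdown. The libraries of the groups were interleaved, with a log2 fold change of 0.09 (SE 0.181) and a 95% interval of the fold from 0.807 to 1.40. The sign of this difference turned without control replicate 1 (-0.0018) and without knockdown replicate 1 (-0.03).

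**Figure D1:**
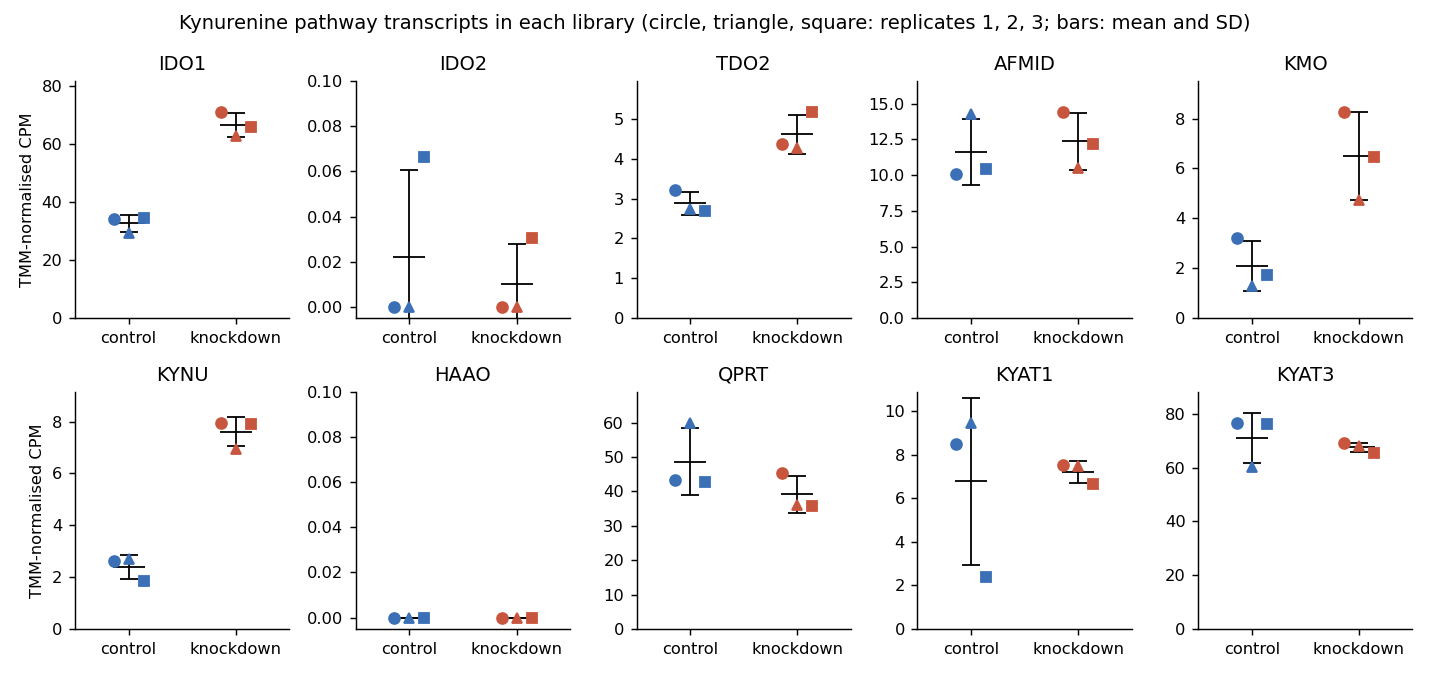
TMM-normalised level (CPM, linear axes that differ between panels) of the 10 enzyme transcripts in each library, with controls in blue and TEAD3 knockdown in red. Circles, triangles and squares are replicates 1, 2 and 3, and bars give the mean and SD of the 3 libraries. The groups are apart in the panels of IDO1, TDO2, KMO and KYNU, control replicate 3 is low in the KYAT1 panel, and HAAO is at 0 in all 6 libraries.

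KMO, the flavin-dependent monooxygenase that turns kynurenine into 3-hydroxykynurenine, was at 3.21, 1.3 and 1.73 CPM in controls and at 8.26, 4.74 and 6.44 CPM in the knockdown (ENSG00000117009, chromosome 1 from 241532134 to 241595642, plus strand). All 3 knockdown libraries were higher than all 3 controls, but both groups were spread widely. Control replicate 1 was the highest control and knockdown replicate 1 the highest library of all. The fold was 3.10 with a wide 95% interval of 1.87 to 5.16 (log2 fold change 1.63, SE 0.333), on 74 to 211 counts a library in controls and 304 to 515 in the knockdown. Leaving out control replicate 1 moved the log2 fold change to 2.09 and leaving out control replicate 2 to 1.39. Exons of KMO overlap OPN3, an opsin gene on the opposite strand. OPN3 was at 34.6, 27.0 and 33.6 CPM in controls and at 19.5, 27.5 and 26.9 CPM in the knockdown, lower on average where KMO was higher. The sources used here do not give the strand setting of the counting, so reads of KMO and OPN3 cannot be told apart where their exons overlap.

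KYNU (ENSG00000115919, chromosome 2 from 142877498 to 143055832, plus strand) encodes kynureninase, which cleaves kynurenine to anthranilic acid and 3-hydroxykynurenine to 3-hydroxyanthranilic acid. It was at 2.61, 2.71 and 1.86 CPM in controls and at 7.96, 6.96 and 7.90 CPM in the knockdown. The groups were far apart for their spread, at 2.39 ± 0.462 and 7.60 ± 0.558 CPM (SD, n = 3 each). KYNU had the largest fold among the 8 genes in the fit, 3.17 (95% interval 2.30 to 4.37, log2 fold change 1.67 with SE 0.210), although its interval and that of KMO cover much the same range. The counts behind it were 171, 154 and 112 in controls and 496, 446 and 516 in the knockdown. The gene on the opposite strand that its exons overlap, SFXN4P1, had no counts.

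HAAO, the dioxygenase that acts next on 3-hydroxyanthranilic acid, had 0 counts in all 6 libraries (ENSG00000162882, chromosome 2 from 42767089 to 42792593, minus strand). A count of 0 allows a level of up to 0.0529 CPM in the shallowest library. QPRT, which turns quinolinic acid into nicotinic acid mononucleotide on the way to NAD, was one of the more abundant transcripts of the pathway. It was at 43.2, 60.0 and 42.8 CPM in controls and at 45.4, 36.1 and 35.8 CPM in the knockdown (ENSG00000103485, chromosome 16 from 29679008 to 29698699, plus strand). Knockdown replicate 1 lay inside the control range, and control replicate 2 was the highest of the 6. The QPRT log2 fold change was -0.32 (SE 0.153) with a 95% interval of the fold from 0.636 to 1.02, and it was -0.14 without control replicate 2. A gene on the same strand, AC009086.2, shares exon sequence with QPRT, and the sources used here do not say how such reads were assigned.

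The aminotransferases of the kynurenic acid branch showed no such separation. KYAT3 was at 76.7, 60.1 and 76.1 CPM in controls and at 69.1, 67.9 and 65.5 CPM in the knockdown (ENSG00000137944, chromosome 1 from 88935773 to 88992953, minus strand). The knockdown libraries all lay between control replicate 2 and the other controls. Its log2 fold change was -0.07 (SE 0.114), with a fold between 0.799 and 1.13. RBMXL1, which overlaps it on the same strand, had 34.6 ± 4.88 CPM in controls against 31.9 ± 1.79 CPM in the knockdown (SD, n = 3 each).

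KYAT1 was at 8.47, 9.46 and 2.40 CPM in controls and at 7.51, 7.48 and 6.63 CPM in the knockdown (ENSG00000171097, chromosome 9 from 128832942 to 128882494, minus strand). Control replicate 3 stood apart, with 144 counts, and set the width of the interval. With all libraries the KYAT1 log2 fold change was 0.09 (SE 0.380, fold between 0.596 and 1.9), and without control replicate 3 it was -0.32.

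**Figure D2:**
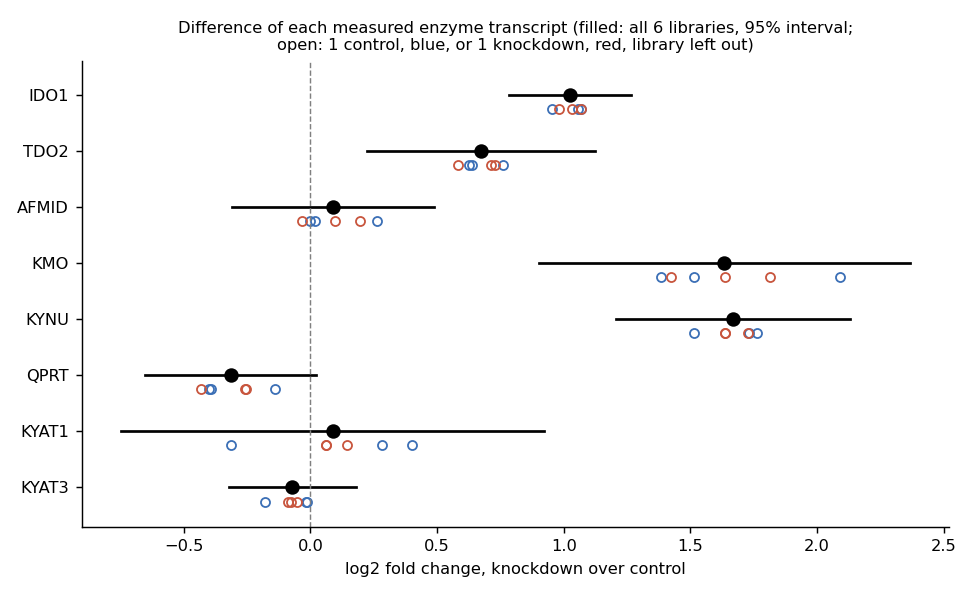
Log2 fold change of knockdown over control for the 8 enzyme transcripts in the fit. Filled points and bars are the estimate and 95% interval from all 6 libraries, and open circles are the estimates with 1 control (blue) or 1 knockdown (red) library left out. IDO1, TDO2, KMO and KYNU stay to the right of 0 whichever library is left out, QPRT and KYAT3 stay to the left, and AFMID and KYAT1 lie on both sides.

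Counted over the pathway, 2 of the 10 genes, IDO1 and KYNU, passed an edgeR quasi-likelihood adjusted p of 0.05 in the higher direction, where 0.451% of all 17723 genes tested did. None passed in the lower direction, where 0.203% of all genes did. The groups did not overlap, with the knockdown higher, for 4 of the 10 (IDO1, TDO2, KMO and KYNU), against 11% of all genes. With the knockdown lower this held for none of the 10, against 10.6% of all genes. Since these genes were chosen on this contrast, the counts describe the choice. Of IDO1 and KYNU, KYNU had the larger adjusted p (edgeR adjusted p = 0.00646), and the gene just outside the threshold was KMO (edgeR adjusted p = 0.0582). Without knockdown replicate 3, KYNU lay just outside as well (log2 fold change 1.64, edgeR adjusted p = 0.0510), and without control replicate 1, KMO lay inside (2.09, edgeR adjusted p = 0.0231). IDO1 lay inside under all 15 alternatives that were run. The median log2 fold change was 0.38 over the 8 genes in the fit and -0.0012 over all genes tested. The summed level of the 10 transcripts was between 173 and 182 CPM in the controls and between 201 and 228 CPM in the knockdown.

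The libraries also differed in RNA that carries no poly(A) tail. The mean log2 CPM of RN7SL1, RN7SL2, RN7SK, RMRP and RPPH1 was 2.01, 3.24 and 2.08 in the controls and 3.62, 2.18 and 4.14 after the knockdown. With this mean as a covariate, the log2 fold change was 1.05 for IDO1, 1.55 for KYNU, 1.67 for KMO and 0.63 for TDO2, close to the values without it. The edgeR adjusted p was larger with the covariate, at 0.0177 for IDO1, 0.0414 for KYNU, 0.285 for KMO and 0.519 for TDO2. Without the covariate it was 0.0024, 0.00646, 0.0582 and 0.158 in that order. The small differences of AFMID (-0.11), KYAT1 (-0.02) and KYAT3 (0.02) changed sign with the covariate.

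Levels of different genes were compared per kilobase of annotated exon sequence. In controls KYAT3 was the most abundant, at 30.8 ± 4.09 CPM per kilobase (SD, n = 3, as for each value in this order). QPRT at 13.4 ± 2.69 and IDO1 at 10.0 ± 0.873 CPM per kilobase came next and differed by little more than the spread of QPRT. AFMID at 2.87 ± 0.575 and KYAT1 at 1.87 ± 1.06 CPM per kilobase followed and were within their spread of each other. TDO2 at 0.548 ± 0.0543, KMO at 0.350 ± 0.169 and KYNU at 0.136 ± 0.0263 CPM per kilobase were the lowest in the fit, and the ranges of TDO2 and KMO overlapped with this length. With the principal transcript they did not, at 1.70 ± 0.168 for TDO2 and 0.396 ± 0.191 CPM per kilobase for KMO. That length also raised the control levels of IDO1 (15.6), QPRT (20.8), AFMID (6.72) and KYAT1 (3.56 CPM per kilobase) by more than 1.5 times. The 3 genes at the low end of this order were all among the 4 whose groups did not overlap. The control libraries enter both the order and the overlap, and the genes were chosen on this contrast, so this is a description only.

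In the knockdown IDO1 was at 20.4 ± 1.28 CPM per kilobase, above QPRT at 10.7 ± 1.5, and only KYAT3 at 29.3 ± 0.787 was higher. IDO1 was below QPRT in each control library and above it in each knockdown library, with the union of exons and with the principal transcript as the length. AFMID stood at 3.05 ± 0.489 and KYAT1 at 1.99 ± 0.138 CPM per kilobase. KMO was at 1.09 ± 0.296, TDO2 at 0.876 ± 0.0931 and KYNU at 0.432 ± 0.0317 CPM per kilobase. The order of KMO and TDO2 depended on the length, since with the principal transcript TDO2 was at 2.71 and KMO at 1.23 CPM per kilobase. The order in controls was the same with either length. KYNU has long annotated exons, 17600 bases in union and 15316 bases in its principal transcript, and its level per kilobase depends on how much of them these cells use.

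**Figure D3:**
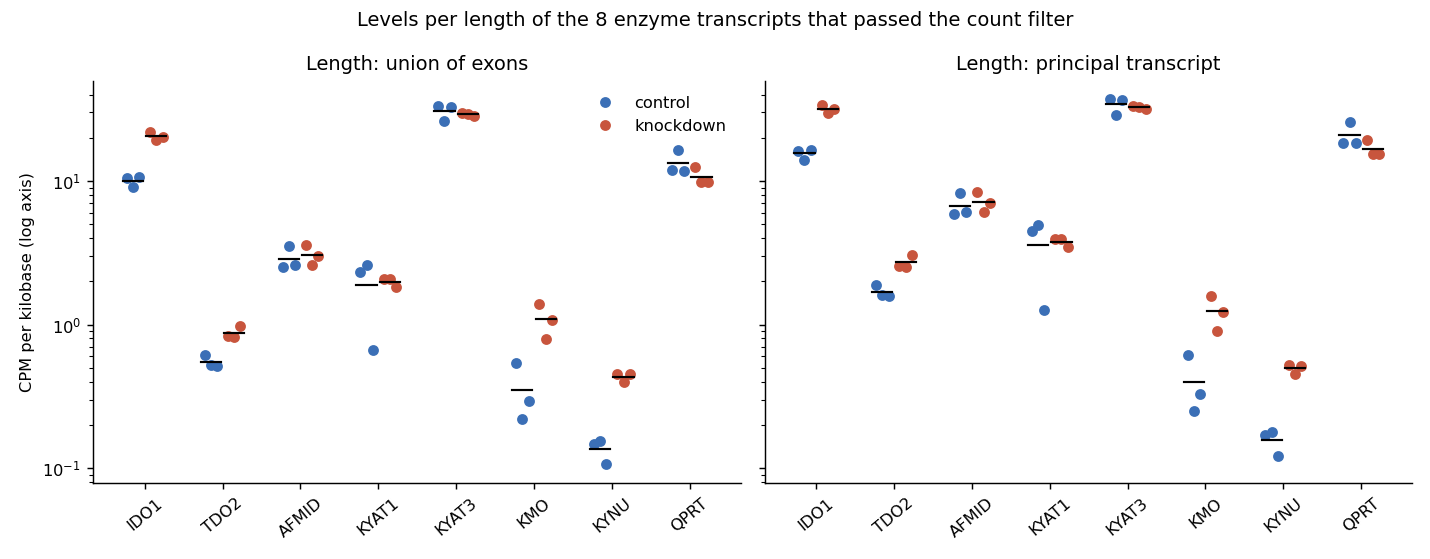
Level per kilobase of the 8 enzyme transcripts in the fit, in CPM per kilobase on a log axis, with the union of exons (left) or the principal transcript (right) as the length. Points are single libraries, controls in blue and knockdown in red, and short lines are means of 3. IDO1 lies below QPRT in the controls and above it in the knockdown in both panels, and KYNU is the lowest throughout.

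By a rule stated with the methods, the genes whose log2 CPM followed IDO1 and KYNU most closely were sought among 13251 genes. For IDO1 these were TIMM8A (Pearson r = 0.996), TCN1 (r = 0.995) and RGS2 (r = 0.994), each over the 6 libraries. RGS2 had the widest range of these, with a mean of 19.5 CPM in controls against 60.3 CPM in the knockdown. For KYNU they were MSRB1 (r = 0.997), SAT1 (r = 0.996) and RRN3P1 (r = 0.996). The 6 points fall into 2 groups, so the likeness is mostly a like difference between groups, and it is given with no test.

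The wider surroundings of the pathway were described with gene lists. These were chosen with earlier results of these data known, so counts of called genes in them may describe that choice. Tryptophan and kynurenine transport held the called genes. Of its 11 genes, 7 were tested, 2 were called higher and none lower, against 0.451% and 0.203% of all genes tested. SLC3A2 and SLC7A5 encode the heavy and light chains of LAT1, a carrier that brings tryptophan into cells and can exchange it for kynurenine. SLC7A5 was at 41.3, 52.5 and 59.8 CPM in controls and at 99.4, 110 and 129 CPM in the knockdown (log2 fold change 1.14, SE 0.147, edgeR adjusted p = 0.00646), and SLC3A2 rose by a like amount (1.17, SE 0.122, edgeR adjusted p = 0.00211). In both genes every knockdown library lay above every control. The call of SLC7A5 was lost without knockdown replicate 3 (1.03, edgeR adjusted p = 0.0559) and with RNA lacking a poly(A) tail as a covariate (1.08, 0.0503). The other 5 tested carriers had log2 fold changes between -0.17 and 0.12, and the list median was 0.08. In 2 of them counts were low and the 95% interval of the fold was wide (both named after their values were seen). It ran from 0.304 to 3.48 for SLC7A8, on 4 to 30 counts a library. For SLC16A10, on 29 to 54 counts, it ran from 0.545 to 2.04.

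Of 5 further enzymes that act on kynurenine metabolites, 4 were tested and edgeR called none, with none at an unadjusted p under 0.05 and none called by DESeq2 or limma-voom. GOT2, a mitochondrial aminotransferase that can also make kynurenic acid, was the most abundant at 251 ± 14.9 and 246 ± 15.3 CPM (SD, n = 3 each). Other fates of tryptophan gave the same counts, with 4 of 11 genes tested. WARS1, which charges transfer RNA with tryptophan, had 1154 ± 80.0 CPM in controls against 1195 ± 88.4 CPM in the knockdown (SD, n = 3 each). TPH2, which starts serotonin synthesis in neurons, had no counts, and TPH1 had at most 12 in a library (both chosen after their values were seen).

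Among 16 genes of NAD synthesis and use, 12 were tested and edgeR called none, while 2 were higher and 2 lower if p was left unadjusted at 0.05. Of all genes tested, 8.15% were higher and 7.43% lower at that unadjusted p. limma-voom called none of the list, and DESeq2, which called 872 genes in all, called those 4. NAMPT, which makes NAD from nicotinamide and not from tryptophan, had the smallest p, at 142, 122 and 143 CPM in controls and at 196, 177 and 196 CPM in the knockdown. Its groups did not overlap (log2 fold change 0.48, SE 0.101, edgeR adjusted p = 0.0656), and it passed without control replicate 2 (0.41, edgeR adjusted p = 0.0396). It passed too under the correction for GC content and length (0.40, edgeR adjusted p = 0.0181) and by DESeq2 (adjusted p = 0.00073). PARP1, which consumes NAD, had 265 ± 10.2 CPM in controls against 210 ± 6.19 CPM in the knockdown (SD, n = 3 each). Its log2 fold change was -0.34 (edgeR adjusted p = 0.118, against 0.0482 under that correction and 0.0142 by DESeq2). The other 2 genes, chosen after their values were seen, were NNMT, whose log2 fold change was 0.75 (edgeR adjusted p = 0.0682), and NMNAT2, whose was -0.37 (edgeR adjusted p = 0.110). The list median was -0.05.

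Of 11 genes for the aryl hydrocarbon receptor and its targets, 7 were tested, with none called by edgeR, DESeq2 or limma-voom and none at an unadjusted p under 0.05. AHR itself, named here after its values were seen, had between 2 and 12 counts in each library and did not pass the filter.

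Of 24 genes for interferon gamma signalling and other inducers of IDO1, 21 were tested. None was called by edgeR, DESeq2 or limma-voom, while 4 were higher and 2 lower if p was left unadjusted at 0.05, against 8.15% and 7.43% of all genes tested. The list median was 0.06. IL6ST, the shared signalling chain of the interleukin 6 receptor family, had the smallest p of the list (log2 fold change 0.37, SE 0.127, edgeR adjusted p = 0.201). The 2 lower genes, named after their values were seen, were IL6R (log2 fold change -0.35, SE 0.121, edgeR adjusted p = 0.209) and STAT3 (-0.24, SE 0.0946, edgeR adjusted p = 0.266). In both, every knockdown library lay below every control. IFNG had 4 counts in control replicate 3 and 4 in knockdown replicate 3 and none elsewhere, and IRF8 and CXCL9 had none (these 3 chosen after their values were seen).

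**Figure D4:**
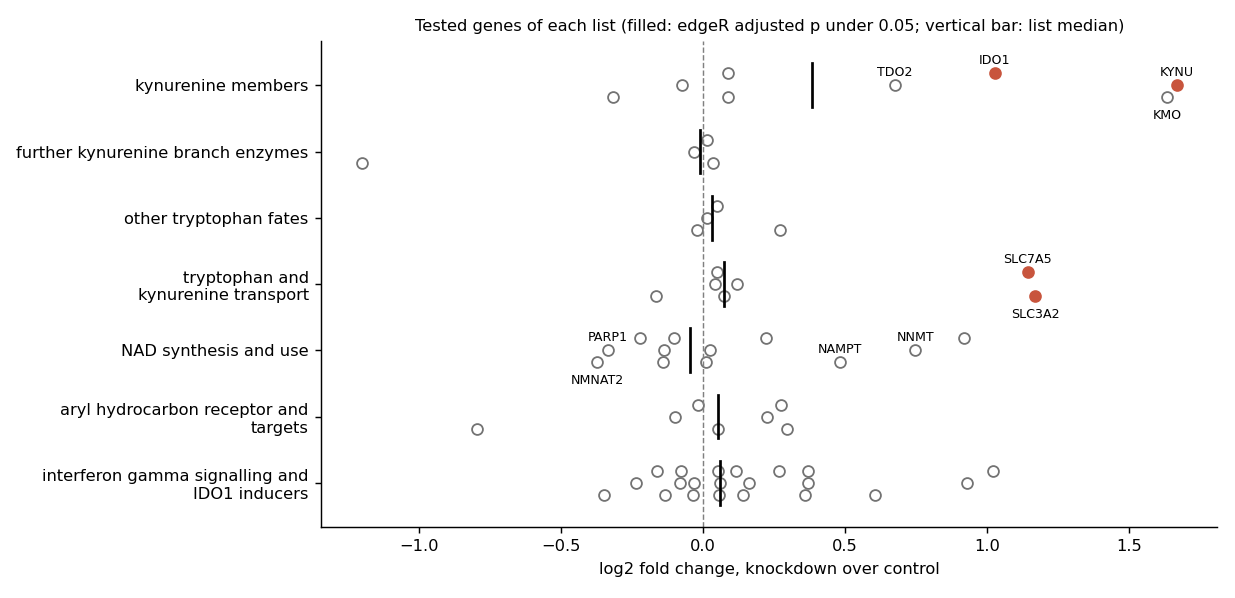
Log2 fold change of knockdown over control for each tested gene of the pathway and of 6 lists of surrounding genes. Filled points passed an edgeR adjusted p of 0.05, and vertical bars are list medians. IDO1, KYNU, SLC7A5 and SLC3A2 are filled and lie beyond 1, as do the open points of KMO (1.63) and CXCL11 (1.02). ALDH8A1, also open, lies at -1.20. Counts were low for CXCL11, at 4 to 32 a library (SE 0.785). ALDH8A1 had 7 to 51 counts a library (SE 0.80), with the 51 in control replicate 3. The medians of the 6 lists lie between -0.05 and 0.08.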

How the data were processed

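Gene counts of 6 libraries were deposited by the authors as whole numbers, with no scaling. The submitters' processing notes name build GRCh38 and, with no roles, HISAT2 2.0.4, StringTie 1.3.4d, cutadapt 1.9, edgeR and DESeq2. The sources used here do not give the program that wrote the counts, its strand setting or its treatment of multiply mapped reads, so the counts may be rounded coverage-based estimates. Of 60612 gene identifiers, 58394 matched GENCODE release 29 and 58477 had a symbol.

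Counts were fitted in R 4.3.3 with edgeR 4.0.16, using TMM scaling, filterByExpr with its minimum of 10 counts, the two-sided quasi-likelihood F test with no term but group, and Benjamini-Hochberg adjustment over the 17723 genes tested. A gene was called at an adjusted p under 0.05. Levels are TMM-normalised CPM. Alternatives were other scalings and filters, DESeq2 1.42.0, limma-voom in limma 3.58.1, the replicate number as a block, each library left out in turn, a non-polyadenylated RNA covariate, and a per-library loess correction (span 0.3) for GC content and transcript length. The principal transcript as a length was chosen after seeing the data. The script was tested on simulated counts. Libraries of a group differed by more than counting noise (chi-square over degrees of freedom from 21.3 to 73.0). Deviations of same-numbered libraries from their group means correlated at 0.0056, -0.017 and 0.0083, so the numbers were not taken to pair the libraries.

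The 10 genes and all lists were chosen with earlier results of these data known. The genes named are TEAD3, the 10 enzymes, up to 4 called genes of each surrounding list, its most abundant gene and its uncalled gene with the smallest p among those under an unadjusted 0.05, and the 3 genes most correlated with IDO1 and with KYNU among those with a mean of at least 1 CPM. Some genes that this rule names are not reported here. Promoter windows came from RefSeq (GRCh38.p14).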

Additional observations from a re-analysis of the deposited data

How the results depend on the processing

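The differences of IDO1, TDO2, KMO, KYNU and QPRT kept their direction under all 15 alternatives, with log2 fold changes of 0.94 to 1.07, 0.57 to 0.76, 1.39 to 2.09, 1.52 to 1.76 and -0.45 to -0.14 in that order. Of the 10 enzymes, 2 were called (IDO1 and KYNU), and between 1 and 3 when 1 library was left out. KMO was called in 5 alternatives, which were DESeq2, the replicate block, the stricter filter, the length and GC correction, and the fit without control replicate 1. The near-zero differences turned sign with the non-polyadenylated RNA covariate for AFMID (-0.11), KYAT1 (-0.019) and KYAT3 (0.024). With 1 library left out, AFMID ranged from -0.032 to 0.26, taking in -0.0018 without control replicate 1, and KYAT1 from -0.32 to 0.40. GOT2 and WARS1 also turned sign, GOT2 (-0.081 to 0.014) without control replicate 2 or knockdown replicate 1 and WARS1 (-0.0025 to 0.11) without knockdown replicate 2. The cause was not tested.

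Over all genes, 116 were called, 80 higher and 36 lower. The count was 31 with no filter, 872 with DESeq2 (488 higher, 384 lower), 63 with the replicate block (47 higher, 16 lower), 554 with the length and GC correction (235 higher, 319 lower), 23 with the non-polyadenylated RNA covariate, and 20 to 589 when 1 library was left out, the highest without control replicate 2 (259 higher, 330 lower). Of the surrounding genes 2 were called, against 6 with DESeq2, 6 with the length and GC correction, 1 with the covariate and 1 to 5 with 1 library left out. The TEAD3 log2 fold change was -1.56 with no filter (edgeR adjusted p = 0.0639), -1.45 with the covariate (0.0569) and -1.80 to -1.37 with 1 library left out. Replicate numbers were not taken to pair libraries, and with the replicate block the same 2 surrounding genes were called, SLC3A2 and SLC7A5. IDO2 and HAAO had too few counts to be fitted, so no alternative gave a difference for them. KMO and KYNU had 74 to 211 and 112 to 171 counts a control library, and the largest SE among the fitted enzymes was that of KYAT1 (0.380).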
